A study of Bos taurus with 20 samples.

Results

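The genes described here are 10 members of the Notch pathway, measured in the cells of the bovine ovarian follicle. They are the receptors NOTCH1, NOTCH2 and NOTCH3, the ligands JAG1, JAG2 and DLL4, the DNA-binding factor RBPJ, and the target genes HES1, HEY1 and HEY2. They were chosen by name, each probe counting for a member when its gene name on the array, without the transcript suffix, was the member's symbol. This gave 10 of the 22550 genes measured, on 28 of 61325 probes, with 22 distinct probe sequences.

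The study hybridised RNA of bovine follicular cells to one-colour Agilent arrays, 4 arrays in each of 5 groups. Follicles of 3 to 6 mm came from ovaries of slaughtered cattle, whose age and breed the labels do not give. Theca cells (TH) were scraped off the follicle wall, so the preparation is a layer of tissue and not a purified cell type. Granulosa cells (GC) were separated from the cumulus-oocyte complexes in the punctured contents of the follicle. Cumulus cells (CC) and oocytes were analysed before any culture, and the fifth group held CC detached after 4 h of in vitro maturation (IVM CC). The study's methods call the 4 arrays of a group biological replicates, but the labels do not say which animals or pools they came from, so the p-values measure the spread between these arrays.

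Notch signalling acts between touching cells, because its ligands of the Jagged (JAG) and Delta-like (DLL) families stay anchored in the membrane of the sending cell. Binding leads to cleavage of the receptor, whose inner part moves to the nucleus, joins RBPJ on DNA and switches on targets such as the HES and HEY repressors. In the ovary the pathway is known from the assembly and growth of follicles, where oocytes and granulosa cells exchange signals, and from the blood vessels of the follicle wall.

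Levels below are log2 processed signals relative to the 75th percentile of the same array, so that 0 is the signal at that percentile, and a gene's level is the median over its probes. Levels are set against each other only for the same gene, apart from the marker sums below, which add signals over genes. Differences between TH, GC, CC and oocytes came from 1 limma fit over 16 arrays, and the IVM CC were compared with CC in a fit of 8 arrays. Adjusted p-values are Benjamini-Hochberg values over all 22550 genes, and a gene was called at an adjusted p under 0.05. A probe was taken as measured on an array where the scanner software marked it as well above background. In such bulk RNA, fewer cells of a type and less RNA per cell cannot be told apart.

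JAG1 was high in oocytes and TH and low in CC, while DLL4 was highest in CC and lowest in oocytes. HES1, HEY1 and HEY2 were all highest in oocytes, where RBPJ was lowest. HEY2 was much lower in TH than in the other cells, and HES1 was lowest in GC. CC after 4 h of IVM held less DLL4 and less HES1 signal than CC before it. NOTCH2 was highest in TH by a small margin, NOTCH3 was measured mainly in TH, and NOTCH1 and JAG2 each had probes that disagreed.

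The sequences of the probes matter for several members, because a gene's level is a summary over probes that may differ. Each probe is a 60-base DNA oligonucleotide. The probes of NOTCH1, NOTCH3 and JAG2 are shown since their readings differ between sequences or lie near background, and 1 each of HES1 and HEY1 since these genes carry the contrast between oocytes and the other cells. Capitals in JAG2 probe 1 mark the 4 TGC or TGT triplets of reading frame 1. Among the frames without a stop, this one was chosen for having the most such triplets. In that frame they stand for cysteine, the residue that shapes the EGF-like repeats of Notch ligands. The other sequences have no letters in capitals.
NOTCH1 probe 1: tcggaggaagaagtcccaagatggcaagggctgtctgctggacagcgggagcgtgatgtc
NOTCH1 probe 2: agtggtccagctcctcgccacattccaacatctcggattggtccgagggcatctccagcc
NOTCH3 probe 1: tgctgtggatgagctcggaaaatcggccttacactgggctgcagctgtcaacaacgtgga
NOTCH3 probe 2: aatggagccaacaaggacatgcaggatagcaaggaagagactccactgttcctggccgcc
JAG2 probe 1: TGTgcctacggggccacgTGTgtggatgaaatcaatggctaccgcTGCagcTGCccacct
JAG2 probe 2: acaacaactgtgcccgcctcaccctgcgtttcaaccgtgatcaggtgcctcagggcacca
HES1 probe 3: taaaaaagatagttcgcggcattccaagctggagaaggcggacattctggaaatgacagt
HEY1 probe 2: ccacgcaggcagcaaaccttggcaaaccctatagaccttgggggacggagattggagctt

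No probe sequence of a member shared a run of more than 10 bases with a probe of another member, over 216 such pairs. None of the 22 sequences shared 30 bases in a row with any of the 61297 other probes. Within a gene, the 2 probes of RBPJ shared a run of 54 bases and HES1 probes 1 and 2 shared 49, so these are nearly the same measurement. HEY2, JAG1 and JAG2 had each of their 2 sequences spotted as 2 probes. In the array's annotation on the bosTau6 build, the transcripts lie at chr11:103986874-104030692 (NOTCH1), chr3:23307157-23478243 (NOTCH2), chr7:8930803-8970307 (NOTCH3), chr13:3832286-3876681 (JAG1), chr21:71145150-71156637 (JAG2) and chr10:36577285-36586360 (DLL4). Those of RBPJ, HEY1 and HEY2 lie at chr6:47318340-47429147, chr14:45126102-45128997 and chr9:25873435-25884617. HES1 had 2 annotated transcripts, at chr1:73974252-73976720 and chr1:73973533-73976720.

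The cell preparations were checked with marker genes. All 5 theca markers were higher in TH than in GC and CC, all 4 granulosa and cumulus markers were lower in TH, and all 6 oocyte markers were higher in oocytes than in each of the other 3 cell types. TH also held more signal of 9 of 10 endothelial markers than GC and of all 10 than CC, and more of 7 of 9 pericyte and smooth muscle markers than either. A summed level is the log2 of the markers' added signals, so it mostly follows the brightest markers of the set. The summed endothelial level ran from 2.97 to 3.88 on the TH arrays, 0.11 to 0.78 in GC, -1.16 to -0.42 in CC and 1.72 to 2.31 in oocytes. Of the 6 oocyte markers 5 were lower in TH and in GC than in CC, whose summed oocyte level was -0.83 to 1.59 against 7.96 to 8.37 in oocytes. Between 49.3% and 68.8% of probes were well above background per array, both limits among oocyte arrays, and the 75th percentile of signal was 284 to 396 on IVM CC arrays, 368 to 1101 in TH, GC and CC, and 1521 to 2889 in oocytes.

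**Figure D1:**
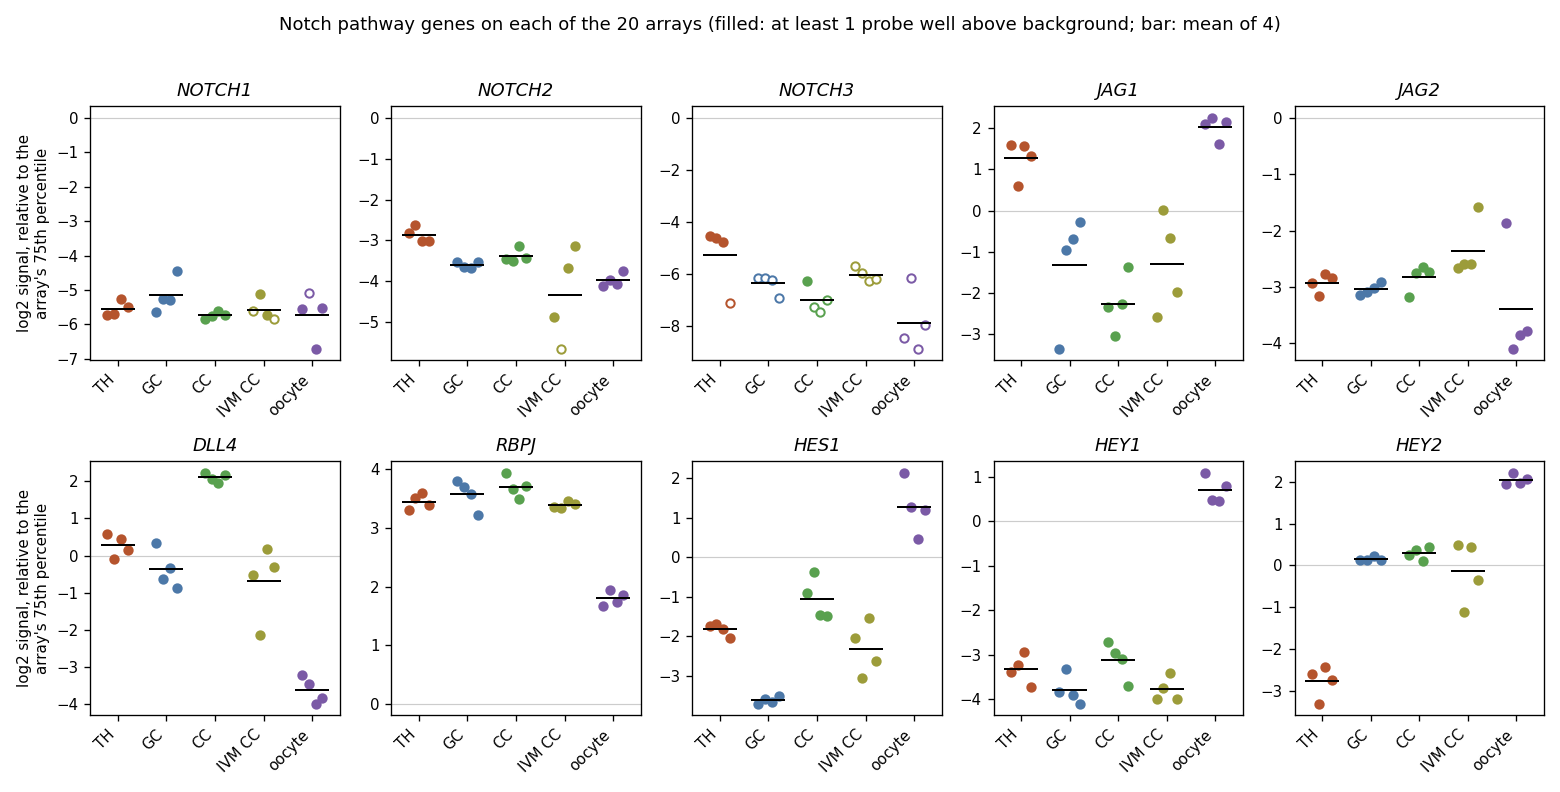
Level of each member on each array (log2 signal relative to the array's 75th percentile) in the 5 groups, 4 arrays each, with a bar at the mean; open symbols had no probe well above background. JAG1, HES1, HEY1 and HEY2 peak in oocytes, DLL4 in CC at 1.97 to 2.23, and RBPJ is lowest in oocytes at 1.68 to 1.95.

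NOTCH1, the receptor best known from T-cell development, gave a weak signal everywhere. The gene level was -5.55 ± 0.22 in TH (SD, n = 4), -5.16 ± 0.51 in GC, -5.74 ± 0.09 in CC, -5.58 ± 0.32 in IVM CC and -5.72 ± 0.70 in oocytes. These levels overlapped, and the limma F-test over TH, GC, CC and oocytes did not pass the threshold (adjusted p = 0.267). The level mixes probes that differed: probe 1 was well above background on 1 of 20 arrays, GC replicate 4, and probe 2 on 17. On probe 2 the level was -4.12 to -3.40 in TH and -4.51 to -4.23 in GC, without overlap. With only probes that passed background on 4 or more arrays, a setting chosen after the probe values were seen, TH exceeded GC by 0.62 (limma adjusted p = 0.0168). With both probes the difference was -0.39 (adjusted p = 0.408).

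NOTCH2, the receptor known for its role in granulosa cells of growing follicles, was highest in TH. The 4 TH arrays read -2.82, -2.62, -3.02 and -3.01, and those of GC -3.52, -3.65, -3.68 and -3.54. CC read -3.46, -3.51, -3.13 and -3.42, and oocytes -4.11, -3.97, -4.05 and -3.76. At this gene level every TH array was above every GC and CC array, and every oocyte array was below them. On probe 2, the brighter of the NOTCH2 probes, the oocyte arrays (-2.94 to -2.44) overlapped those of GC (-2.82 to -2.33) and CC (-2.66 to -1.99). TH exceeded GC by 0.73 (SE 0.15, limma adjusted p = 0.00146) and CC by 0.52 (SE 0.15, adjusted p = 0.0127), a fold of 1.66 and 1.43. Oocytes were lower than TH by 2.15-fold (adjusted p = 5.4e-06), than CC by 1.51-fold (adjusted p = 0.00213) and than GC by 1.30-fold (adjusted p = 0.032). GC and CC, neighbours in this order, did not overlap, but their difference did not pass (-0.21, 95% interval -0.52 to 0.10, adjusted p = 0.447). The TH excess over GC was 0.20 (adjusted p = 0.274) after normexp background correction and that over CC 0.28 (adjusted p = 0.228). The oocyte to GC difference lost its call under several settings, among them quantile normalization (-0.17, adjusted p = 0.318). The oocyte to CC difference lost its call in 3 of 33 other settings, among them the brightest probe (-0.34, limma adjusted p = 0.131) and all 20 arrays in 1 fit (adjusted p = 0.162). Within slide 1 and slide 2 alone, TH minus GC was 0.87 (adjusted p = 0.0703) and 0.59 (adjusted p = 0.165). The theca, endothelial, and pericyte and smooth muscle markers were higher in TH too, and their part in NOTCH2 was not tested. In the IVM CC the arrays spread from -5.66 to -3.12, and 1 of 4 had no probe above background.

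NOTCH3, a receptor of the smooth muscle and pericytes around vessels, was measured on 3 of 4 TH arrays, 1 of 4 CC arrays and none of GC, IVM CC or oocytes. TH read -4.53, -4.61, -4.78 and -7.11, the last not above background, while GC read -6.94 to -6.16, CC -7.46 to -6.26 and oocytes -8.89 to -6.17. TH replicate 4 thus lay inside the range of the unmeasured groups, and the other 3 TH arrays lay above all the rest. TH was higher than oocytes by at least 1.56-fold (limma adjusted p = 0.0011). TH exceeded CC by 1.75 (SE 0.60, adjusted p = 0.0356), a call that was lost in 14 of 33 other settings, among them leaving out TH replicate 1, 2 or 3 or CC replicate 2, 3 or 4. Against GC, where no array was above background, no fold is given, and the fit's adjusted p was 0.206, or 0.0205 without TH replicate 4. The fit also called oocytes below GC and IVM CC above CC, but in those groups at most 1 array was above background and no fold is given. Of 9 pericyte and smooth muscle markers 7 were higher in TH than in GC and 0 lower, and 7 were higher than in CC and 1 lower. Their summed level was 7.83 on TH replicate 4 and ran from 7.78 to 7.95 over the TH arrays. This sum follows ACTA2, at 7.39 ± 0.11 in TH. It cannot tell whether dimmer markers such as RGS5 (0.50 ± 0.39) or PDGFRB (-2.61 ± 0.24) held steady on that array. The part of pericytes and smooth muscle in the NOTCH3 level was not tested.

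JAG1, a ligand of the Jagged family that oocytes of young follicles are known to carry, was high in oocytes and TH. Oocytes read 2.12, 2.25, 1.62 and 2.16, and TH 1.59, 0.59, 1.58 and 1.32. GC read -3.37, -0.97, -0.71 and -0.29, and CC -2.36, -3.05, -2.29 and -1.37. All oocyte and TH arrays lay above all GC and CC arrays. Oocytes exceeded CC by 4.30 (SE 0.54, 19.7-fold, limma adjusted p = 2.96e-06) and GC by 3.37 (10.4-fold, adjusted p = 4.1e-05). TH exceeded CC by 3.54 (11.6-fold, adjusted p = 8.86e-05) and GC by 2.61 (6.09-fold, adjusted p = 0.00174). Within slide 1 and slide 2 alone, TH minus GC was 3.27 (adjusted p = 0.0548) and 1.95 (adjusted p = 0.0181).

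Oocytes and TH, neighbours in the order of JAG1 levels, did not overlap but the difference of 0.76 did not pass (95% interval -0.38 to 1.91, limma adjusted p = 0.216). It did pass with the deposited table (1.34, adjusted p = 0.00383) and after normexp correction (0.81, adjusted p = 0.0301). GC and CC overlapped, with a difference of 0.93 (interval -0.21 to 2.07, adjusted p = 0.345). GC replicate 1, lowest of its group for JAG1, was also lowest for the summed endothelial markers (0.11), the theca markers (4.69) and the pericyte and smooth muscle markers (3.36). But GC replicate 4, highest of its group for JAG1 (-0.29), was next lowest for these sums (0.61, 5.01 and 3.57). Without GC replicate 1 the GC arrays exceeded CC by 1.61 (adjusted p = 0.00996). The part of vessel or theca cells in the JAG1 level of TH and GC was not tested. Both JAG1 sequences put the 4 cell types in the same order of means.

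JAG2, the second Jagged ligand, read differently on its 2 sequences. Probe 1, in which the cysteine triplets of frame 1 are marked, was above background on 3 oocyte arrays and 1 IVM CC array and on no array of TH, GC or CC. Its oocyte readings were -2.97, -6.19, -5.94 and -5.91, so that replicate 1 stood far above the other 3. Probe 2 was above background on all 20 arrays and went the other way, with TH at 1.04 to 1.56, GC at 0.84 to 1.09, CC at 0.74 to 1.33, IVM CC at 0.97 to 1.37 and oocytes at -2.00 to -0.77. No oocyte array of probe 2 overlapped any other array.

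The JAG2 gene level, a median over both sequences, ran from -4.10 to -1.86 in oocytes and did not pass the limma F-test over the 4 cell types (adjusted p = 0.464). With only probes above background on at least 4 arrays, which leaves probe 2, oocytes were lower than CC by 2.69 on the log2 scale (limma adjusted p = 3.58e-08), than GC by 2.52 (adjusted p = 7.88e-08) and than TH by 2.87 (adjusted p = 1.64e-08). That setting was chosen after the probe values were seen. Without oocyte replicate 1 the gene level passed too, at -1.08 from CC (adjusted p = 4.59e-05), -0.87 from GC (adjusted p = 0.000355) and -0.98 from TH (adjusted p = 0.00011).

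**Figure D2:**
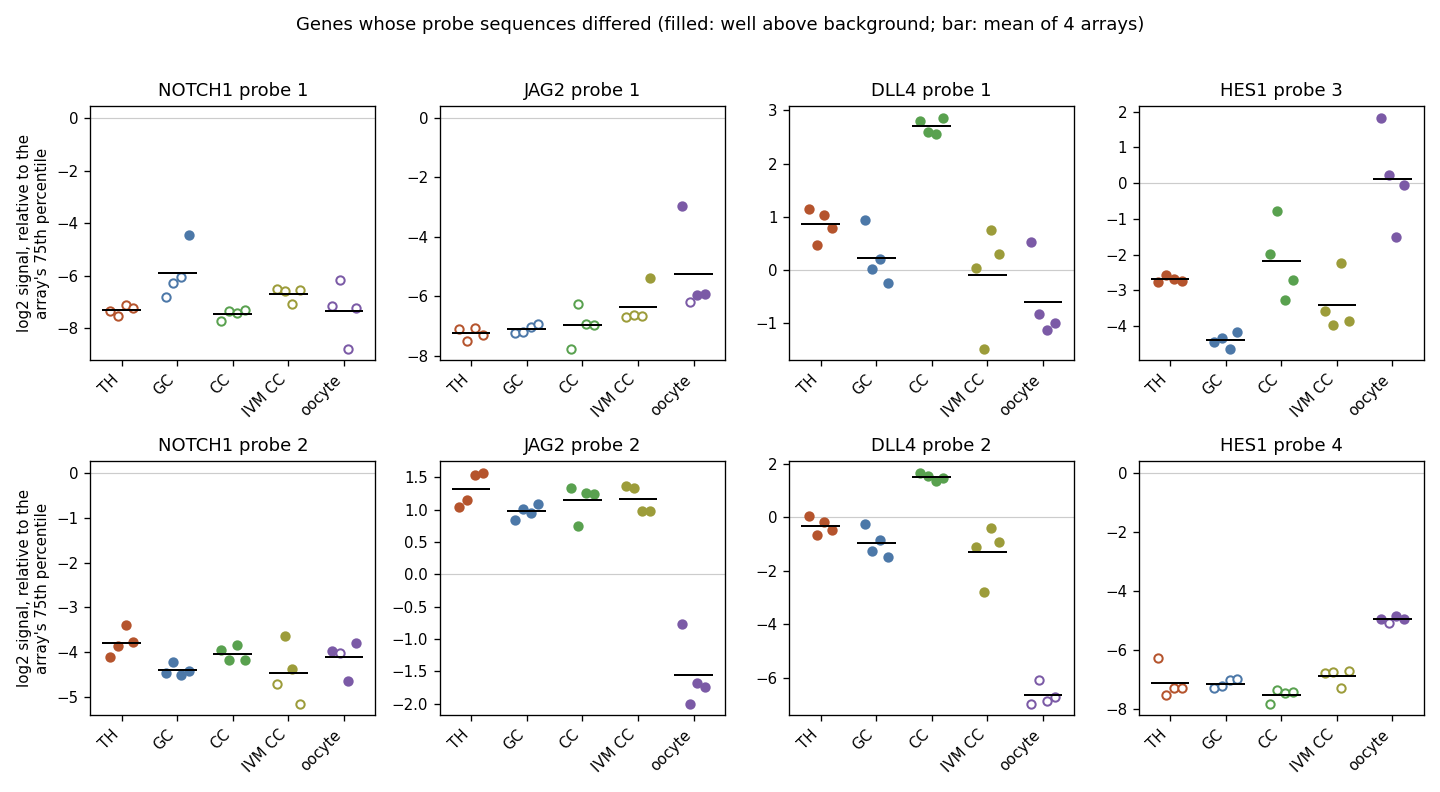
Levels of single probe sequences on each array (log2 signal relative to the array's 75th percentile), with a bar at the mean of 4 arrays and open symbols where the probe was not above background. JAG2 probe 2 is lowest in oocytes while probe 1 is measured mainly there, and DLL4 probe 2 is above background on no oocyte array although probe 1 is on all 4.

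DLL4, the Delta-like ligand best known from sprouting vessels, was highest in CC. The CC arrays read 2.23, 2.07, 1.97 and 2.17, with a narrower spread than in any other group. TH read 0.59, -0.10, 0.44 and 0.16, GC 0.35, -0.63, -0.33 and -0.87, and oocytes -3.23, -3.46, -4.00 and -3.85. At this gene level all CC arrays were above all others and all oocyte arrays below all others, while TH and GC overlapped. CC exceeded GC by 5.58-fold (log2 SE 0.25, limma adjusted p = 2.34e-05) and TH by 3.58-fold (adjusted p = 3.33e-05). CC exceeded oocytes as well (adjusted p = 1.49e-11), by a size that depended on the probe. GC minus CC was -2.29 (adjusted p = 0.0815) within slide 1 and -2.67 (adjusted p = 0.0109) within slide 2. All 10 endothelial markers were lower in CC than in TH, and the part of endothelial cells in the DLL4 levels was not tested.

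Of the DLL4 probes, probe 2 was above background on no oocyte array, at -6.67 ± 0.41, while probe 1 was above it on all 4, at -0.60 ± 0.76 against 2.70 ± 0.15 in CC. On probe 1 the oocyte arrays ran from -1.12 to 0.53 and overlapped those of TH (0.47 to 1.14), GC (-0.25 to 0.94) and IVM CC (-1.48 to 0.75). With the brightest probe only, oocytes minus CC was -3.30 (limma adjusted p = 3.46e-07), minus TH -1.46 (adjusted p = 0.00113) and minus GC -0.83 (adjusted p = 0.0387), the last against -3.27 with both probes. TH minus GC was 0.64 (adjusted p = 0.0774) and passed with the replicate number as a block (adjusted p = 0.0378), with array weights (adjusted p = 0.0307), with the deposited table (adjusted p = 0.0161) and without GC replicate 1 (adjusted p = 0.0106).

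RBPJ, the DNA-binding partner of the cleaved receptor, was lower in oocytes than in the 3 somatic cell types, among which no difference passed. TH read 3.30, 3.50, 3.59 and 3.39, GC 3.80, 3.70, 3.58 and 3.22, CC 3.93, 3.66, 3.49 and 3.72, and oocytes 1.68, 1.95, 1.74 and 1.85. TH, GC and CC overlapped, and their differences were at most 0.25 in size (limma adjusted p of 0.267 to 0.688, 95% interval of the largest, TH minus CC, -0.59 to 0.08). Oocytes were lower than CC by 3.72-fold (log2 SE 0.16, limma adjusted p = 2.58e-08), than GC by 3.41-fold (adjusted p = 5.98e-08) and than TH by 3.12-fold (adjusted p = 1.38e-07), with no overlap. Within each slide, oocytes minus CC was -1.98 and -1.80.

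HES1, a repressor of the HES family switched on by Notch and by other signals, was highest in oocytes and lowest in GC. Oocytes read 2.14, 1.29, 0.46 and 1.21, and GC -3.71, -3.57, -3.67 and -3.51. CC read -0.89, -0.36, -1.45 and -1.49, and TH -1.73, -1.68, -1.81 and -2.04. At this gene level none of these 4 groups overlapped. Oocytes exceeded GC by 29.6-fold (log2 SE 0.30, limma adjusted p = 8.58e-10), TH by 8.49-fold (adjusted p = 1.87e-07) and CC by 5-fold (adjusted p = 4.98e-06). GC were lower than CC by 5.92-fold (adjusted p = 8.33e-05) and than TH by 3.49-fold (adjusted p = 0.000338).

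CC and TH, neighbours in the order of HES1 levels, differed by -0.76 (TH minus CC, limma adjusted p = 0.0693). This passed in 12 of 33 other settings, among them quantile normalization (-0.85, adjusted p = 0.0347) and use of probes above background on at least 4 arrays (-1.02, adjusted p = 0.000112). The latter setting was chosen after the probe values were seen. HES1 probe 4 was measured only on 3 oocyte arrays. Probe 3, printed above, gave the same lowest group and the same highest group by their means, with wider spreads in CC (-3.27 to -0.77) and oocytes (-1.51 to 1.82). On this probe CC overlapped both oocytes and TH (-2.76 to -2.58).

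HEY1, a HEY-family repressor, was set apart by the oocyte alone. Oocytes read 1.09, 0.48, 0.45 and 0.81, while the 16 arrays of the other groups lay between -4.11 and -2.72. Oocytes exceeded GC by 22.8-fold (log2 SE 0.25, limma adjusted p = 2.09e-10), TH by 16.4-fold (adjusted p = 7.01e-10) and CC by 14.2-fold (adjusted p = 1.35e-09). TH, GC and CC overlapped, the largest difference being GC minus CC at -0.68 (95% interval -1.21 to -0.15, adjusted p = 0.108). The HEY1 sequence printed above placed the oocyte arrays over all others.

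HEY2, a relative of HEY1 that also represses transcription, had 3 levels. Oocytes read 1.95, 2.22, 1.97 and 2.08, and GC and CC lay together at 0.13, 0.14, 0.24 and 0.13 and at 0.25, 0.36, 0.10 and 0.45. TH read -2.59, -3.32, -2.45 and -2.75, below every array of the other 4 groups. TH was lower than GC by 7.64-fold (log2 SE 0.17, limma adjusted p = 1.52e-08), than CC by 8.38-fold (adjusted p = 4.32e-09) and than oocytes by 28.4-fold (adjusted p = 1.86e-12). Oocytes exceeded CC by 3.39-fold (adjusted p = 2.2e-07) and GC by 3.72-fold (adjusted p = 9.77e-08). GC and CC overlapped (-0.13, 95% interval -0.51 to 0.24, adjusted p = 0.697). Both HEY2 sequences put the 4 cell types in the same order of means.

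**Figure D3:**
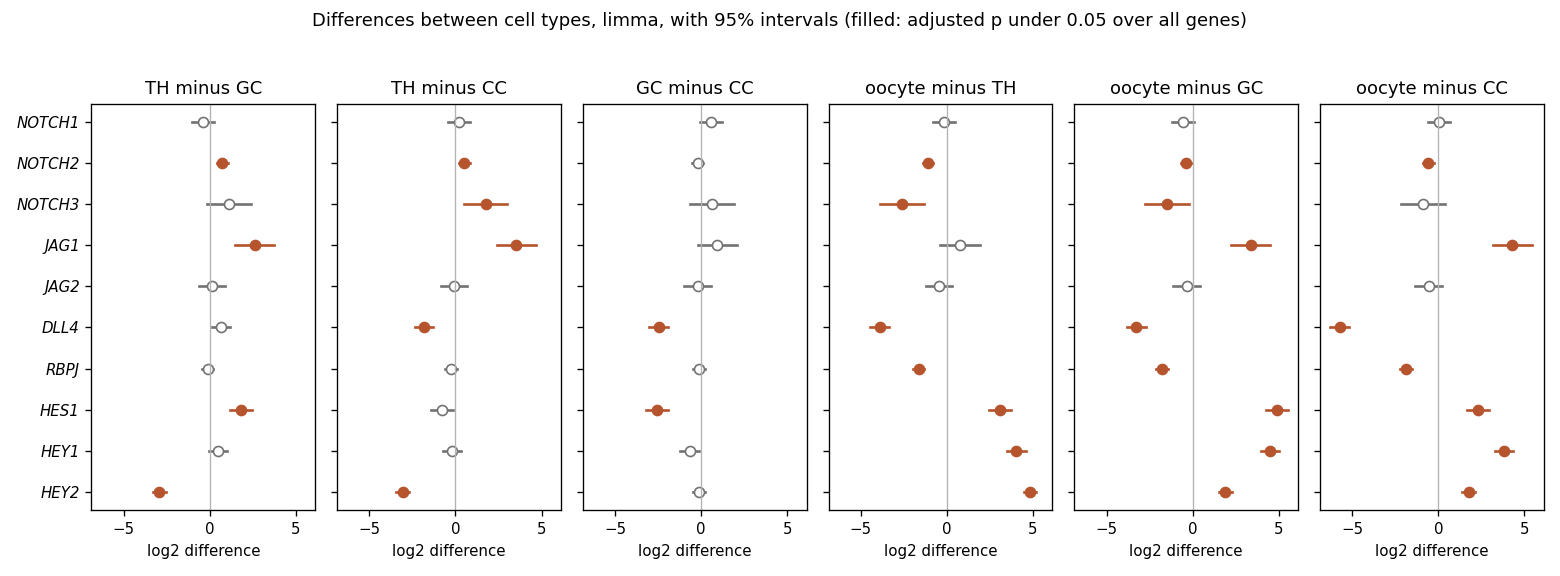
Log2 differences of the members between pairs of cell types with 95% intervals (limma, 4 arrays a group), filled where the adjusted p was under 0.05. In the 3 panels with oocytes HES1, HEY1 and HEY2 lie to the right of 0 and DLL4, RBPJ and NOTCH2 to the left, and in the panels of TH against GC and CC HEY2 lies at -2.93 and -3.07.

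By the F-test over the 4 cell types, 8 of the 10 members were called, where 71.3% of all genes were. TH minus GC called 3 members higher (NOTCH2, JAG1, HES1) and 1 lower (HEY2), against 11.8% and 14.5% of all genes. TH minus CC called 3 higher (NOTCH2, NOTCH3, JAG1) and 2 lower (DLL4, HEY2), against 14.4% and 17.4%. GC minus CC called 0 higher and 2 lower (DLL4, HES1) by limma, against 4.61% and 5.28%. At an unadjusted p under 0.05 there were 3 members, these and HEY1, all lower in GC. The share of all genes at that unadjusted threshold was not counted, so this count has no background.

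Oocytes minus CC called 4 members higher (JAG1, HES1, HEY1, HEY2) and 3 lower (NOTCH2, DLL4, RBPJ), against 31.8% and 32% of all genes. Oocytes minus GC called the same 4 higher and 4 lower (NOTCH2, NOTCH3, DLL4, RBPJ), against 30.7% and 37.9%, with NOTCH3 above background in neither group. Oocytes minus TH called 3 higher (HES1, HEY1, HEY2) and the latter 4 lower, against 32.5% and 32.1%. These 3 comparisons share the oocyte arrays. The median of all genes was itself shifted, by -0.40 in oocytes minus CC, -0.62 in oocytes minus GC, -0.42 in oocytes minus TH, -0.22 in TH minus GC and 0.16 in GC minus CC, beside member medians of -0.28, -0.37, -0.32, 0.56 and -0.17. In TH minus CC the medians were 0.00 over all genes and -0.15 over the members.

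DLL4 and HES1 were lower in CC after 4 h of IVM, hybridised on a slide of their own, than in CC before it. DLL4 read -0.53, -2.13, 0.18 and -0.31 in IVM CC, all below the CC arrays (1.97 to 2.23), and fell by 2.81 on the log2 scale, a fold of 7.02 (SE 0.43, limma adjusted p = 0.00088). The HES1 gene level read -2.03, -3.05, -1.53 and -2.61, all below the CC arrays though the nearest lay at -1.49, and fell by 1.26 on the log2 scale, a fold of 2.39 (SE 0.37, adjusted p = 0.0237). On HES1 probe 3 the IVM CC arrays (-3.96 to -2.24) overlapped the CC arrays (-3.27 to -0.77). Across all genes 30.3% were called higher and 15.5% lower, and their median rose by 0.37, so that relative to it DLL4 differed by -3.18 and HES1 by -1.62. The HES1 call was lost without CC replicate 1 (adjusted p = 0.0617), CC replicate 2 (adjusted p = 0.056) or IVM CC replicate 4 (adjusted p = 0.0594). The DLL4 call stood in all 22 other settings, at -3.10 to -2.33.

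Of the other members, NOTCH3 was called higher (limma adjusted p = 0.0229), but no IVM CC array and 1 CC array had a probe above background, so no size is given. HEY1 missed the threshold at -0.66 (adjusted p = 0.0552) and passed in 5 of 22 other settings, among them the percentile taken over probes above background on all arrays (-0.76, adjusted p = 0.0475). JAG1 differed by 0.96 (95% interval -0.31 to 2.22, adjusted p = 0.186), JAG2 by 0.47 (-0.15 to 1.08), NOTCH1 by 0.16 (-0.30 to 0.62), NOTCH2 by -0.95 (-2.03 to 0.12), HEY2 by -0.42 (-1.19 to 0.35) and RBPJ by -0.31 (-0.70 to 0.08). RBPJ alone of these did not overlap between the groups, at 3.34 to 3.47 in IVM CC and 3.49 to 3.93 in CC. RBPJ was called with the deposited table (-0.75, limma adjusted p = 0.000949) and after normexp correction (-0.39, adjusted p = 0.01), and HEY2 with the deposited table (-0.77, adjusted p = 0.0405). The sign of NOTCH1 turned under quantile normalization (-0.12), that of NOTCH2 and HEY1 after normexp correction (0.15 and 0.11) and that of JAG2 with the deposited table (-0.03).

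All 4 IVM CC arrays lay on a slide of their own, while the CC arrays lay on the 2 slides that held the other groups, so slide and maturation cannot be told apart. With the slide as a random block, 67.9% of all genes were called against 45.8% without it, and 8 members were, 3 higher and 5 lower, among them RBPJ (adjusted p = 0.0331), NOTCH2 (adjusted p = 0.017) and JAG1 (adjusted p = 0.039) by limma. That fit estimated a correlation within slides of -0.26, and a negative value narrows the standard errors of this comparison. As slide and maturation coincide, the block cannot adjust for the slide, and the added calls are no firmer for it. Of 6 oocyte markers 4 were lower in IVM CC than in CC, with summed levels of -2.64 to -0.84 against -0.83 to 1.59, and 4 of 5 blood cell markers were higher, with summed levels of 4.91 to 5.52 against 4.64 to 5.58. Of the 4 granulosa and cumulus markers 1 was higher and 3 were lower, with summed levels of 9.29 to 9.59 against 8.57 to 8.62. The blood sum followed HBA, at 5.20 ± 0.29 in IVM CC against 5.22 ± 0.43 in CC. The granulosa and cumulus sum followed INHBA, at 9.39 ± 0.13 against 8.32 ± 0.04. HES1 was higher in oocytes than in CC and DLL4 lower, and the part of these cells in the CC levels was not tested.

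**Figure D4:**
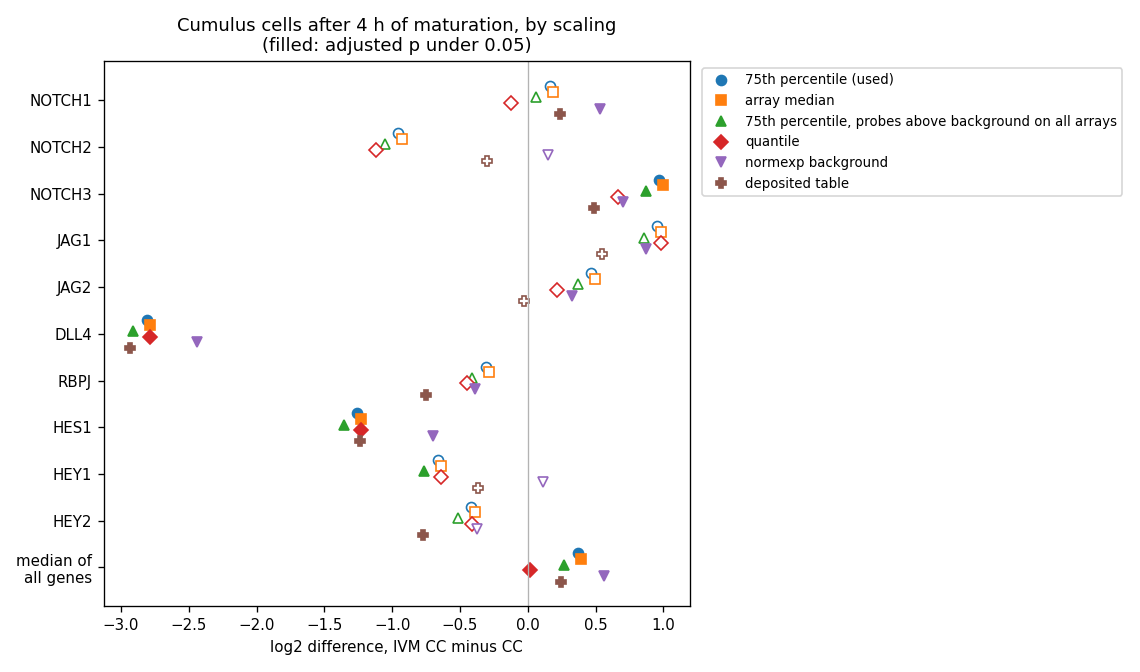
Log2 difference between IVM CC and CC for each member under 6 ways of scaling, filled where limma's adjusted p was under 0.05; the lowest row is the median of all genes, which has no test. DLL4 lies between -2.93 and -2.44 and HES1 between -1.35 and -0.70 under all 6, while the median of all genes moves from 0.01 to 0.57.

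Of 47 other Notch pathway genes 46 were found on the array, and the F-test called 36 of them, beside 71.3% of all genes. TH minus GC called 11 higher and 5 lower, beside 11.8% and 14.5% of all genes, TH minus CC 12 and 6, beside 14.4% and 17.4%, and GC minus CC 3 and 1, beside 4.61% and 5.28%. Oocytes minus CC called 18 higher and 13 lower, beside 31.8% and 32% of all genes, oocytes minus GC 17 and 14, beside 30.7% and 37.9%, and oocytes minus TH 17 and 17, beside 32.5% and 32.1%. IVM CC minus CC called 11 and 6, beside 30.3% and 15.5%. The medians over the 46 genes were -0.10, 0.05, 0.09, -0.0056, -0.0013, 0.0057 and 0.25 in this order.

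Among the other receptors and ligands, NOTCH4, a receptor of endothelial cells, was called in none of the 7 comparisons. It differed by 0.71 in TH minus GC (limma adjusted p = 0.138) and by 0.75 in TH minus CC (adjusted p = 0.103). DLL1, a Delta-like ligand, was above background only on the 4 TH arrays, where its level was at least 1.21-fold that of GC (adjusted p = 0.000658), at least 1.58-fold that of CC (adjusted p = 0.00013) and at least 2.22-fold that of oocytes (adjusted p = 3.85e-05). DLL3, a divergent ligand known to dampen Notch within a cell, was 26.8-fold higher in oocytes than in CC (adjusted p = 1.95e-10), 32.9-fold higher than in GC and 37.1-fold higher than in TH. DLK2, a related protein, read 0.81 ± 0.05 in oocytes, -0.95 ± 0.18 in CC, -4.24 ± 0.96 in GC and -5.65 ± 0.19 in TH (n = 4 each), and was lower in GC than in CC by 9.78-fold (adjusted p = 2.41e-05) and in IVM CC than in CC by 6.38-fold (adjusted p = 8.29e-05).

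HEYL, the HEY relative found in smooth muscle of vessels, had the reverse pattern of HEY2 in TH. TH held 1.99 ± 0.30, GC -2.80 ± 1.06, CC -4.18 ± 0.68 and oocytes -5.91 ± 0.45 (n = 4 each), with no TH array overlapping another group. TH exceeded GC by 27.7-fold (limma adjusted p = 1.25e-06), CC by 71.8-fold (adjusted p = 4.83e-08) and oocytes, above background on 3 arrays, by 239-fold (adjusted p = 2.91e-10). The summed pericyte and smooth muscle markers were also highest in TH, at 7.78 to 7.95, against 3.36 to 4.70 in GC, 2.63 to 2.97 in CC and 3.15 to 3.78 in oocytes. The oocyte sum followed CNN1, at 3.40, while 1 of the 9 markers was higher in oocytes than in CC and 6 were lower. The part of pericytes and smooth muscle in HEYL was not tested.

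MFNG, a glycosyltransferase that alters which ligands a Notch receptor answers to, was 114-fold higher in TH than in CC, where 3 arrays were above background (limma adjusted p = 1.38e-07) and at least 164-fold higher in TH than in oocytes (adjusted p = 5.45e-10), and 6.14-fold higher in GC than in CC (adjusted p = 0.00636). DTX1, an E3 ligase of the Deltex family, was 56.4-fold higher in TH than in GC, where 2 arrays were above background (adjusted p = 1.73e-07), at least 71.4-fold higher in TH and at least 24.2-fold higher in oocytes than in CC (adjusted p = 3.18e-09 and 2.63e-09). HES7, a HES repressor, was at least 11.7-fold higher in oocytes than in CC (adjusted p = 8.99e-09). Lower in oocytes than in CC were POGLUT1, which adds glucose to Notch, by at least 16.6-fold (adjusted p = 2e-09) and NCSTN, a subunit of the protease that cuts the receptor, by 19.0-fold with 1 oocyte array above background (adjusted p = 1.11e-09). POGLUT1 and MFNG were also lower in oocytes than in GC, by at least 11.7-fold and 8.83-fold (limma adjusted p = 6.37e-09 and 8.38e-07).

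SPEN, a corepressor that binds RBPJ, was 2.31-fold lower in TH than in CC (limma adjusted p = 0.00771). HES6, another HES gene, was measured on 3 GC arrays and no TH array, at -5.86 ± 0.87 and -7.16 ± 0.35 (n = 4 each, limma adjusted p = 0.0117). In IVM CC, HES6 was at least 1.26-fold higher than in CC (adjusted p = 6.41e-05) and ADAM17, a protease that sheds the outer part of Notch, 3.47-fold higher (adjusted p = 0.0013), while DTX3, another Deltex gene, was 2.87-fold lower (adjusted p = 0.00589).

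The genes whose levels followed the members most closely over the 20 arrays were found by Pearson's r among 17556 genes above background on at least 4 arrays. HEY1 was followed by TMEM145 (r = 0.98), RAP1GAP and SEC1, HEY2 by HOOK1 (0.97), NLK and TDRD5, and HES1 by DYRK3 (0.93), CSPG5 and BAIAP2L1. RBPJ was followed by RIMKLB (0.98), APOL and RRAGB, JAG1 by ELK3 (0.95), ARHGAP24 and BTBD19, and NOTCH3, above background on only 4 of the 20 arrays, by TSPAN2 (0.91), IGF-I and KCNAB1. DLL4 was followed by SLC2A4RG (0.95), THRA and the immediate early gene FOS (0.95). For NOTCH1, NOTCH2 and JAG2 no gene reached 0.9. The 20 points share 5 cell preparations, so these values describe differences between groups of arrays more than between arrays.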

How the data were processed

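RNA (200 ng a sample) of 20 samples in 5 groups was labelled with Cy3 and hybridised to one-colour Agilent bovine arrays. The authors scanned the arrays and deposited, per the labels, Agilent Feature Extraction 10.7.3.1 files of spot intensity, of which the background-corrected, processed intensity was used. The authors also deposited a table of processed log2 values. Set against the scanner files, it equals the log2 median signal minus its array median within 5e-09, and it served as an alternative.

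Processed intensities were taken to log2, each array's 75th percentile was subtracted, and the median over the probes of a gene was taken. Group means were compared with limma 3.58.1 in R 4.3.3 (with statmod 1.5.0), in 1 fit of the 16 TH, GC, CC and oocyte arrays (F-test and 6 pairs) and 1 fit of the 8 CC and IVM CC arrays. Benjamini-Hochberg adjustment ran over 22550 genes, with a threshold of 0.05. The fits were tested on simulated log2 values with known differences, and their median estimates returned the size simulated. The number of arrays limits the precision. The study's analysis of variance with Tukey pairs was run as an alternative, beside other normalizations, probe summaries, filters, slide and replicate blocks, single slides, array weights and leaving out each array.

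A gene not above background on any array of a group has only a bound there, the bright group's mean against a floor. Per array, the floor is the higher of the gene's own value and the lowest signal above background over all probes. Probes not above background may read higher than that lowest signal. The words "at least" are therefore relative to this floor and not to a detection limit. The members and the lists of pathway and marker genes were chosen with earlier results of these data known. All members were reported, and of the pathway genes up to 2 with the largest called difference in each direction of each comparison, plus NOTCH4, DLL1, DLL3 and HEYL. Of the 47 pathway genes 46 were matched, 1 of them by accession. Replicate numbers were taken from the labels. In TH and GC all 4 correlations between the deviations of same-numbered samples from their group means exceeded 0.1 (0.13 to 0.37). In GC and CC 3 of 4 did (0.03 to 0.22), in TH and CC 2, and in the other pairs at most 1. The numbers were taken as pairing TH with GC, but the fits of 16 and 8 arrays that gave the calls left this pairing out. The replicate number entered only as a block in an alternative run. A probe sequence of 1 member is not reported here.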

Additional observations from a re-analysis of the deposited data

Results flagged for a closer look

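In 5 of the 50 sets of 4 arrays formed by the 10 genes and 5 groups, 1 array lay far from the other 3. Chance flags about 1 in 20 groups. NOTCH3 on TH replicate 4 read -7.11, where the other TH arrays read -4.78 to -4.53. NOTCH3 on GC replicate 4 read -6.94 against -6.22 to -6.16, with no GC array above background. JAG2 on IVM CC replicate 4 read -1.57 against -2.67 to -2.59, and on oocyte replicate 1 it read -1.86 against -4.10 to -3.78. HEY2 on GC replicate 3 read 0.24 against 0.13 to 0.14, a set with a narrow spread.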

How the results depend on the processing

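Of the 36 differences between groups that were called among the members, 26 stayed called in the same direction under every alternative run, and the other 10 are differences of NOTCH2, NOTCH3, JAG1, DLL4 and HES1. The share of all genes called stands in brackets after each count, except for the ranges from leaving out 1 array, which have no such background here. The number of members called in TH minus CC was 3 after normexp correction (24%), on slide 1 only (14.7%) and on slide 2 only (18.4%), against 5 (31.8%). In TH minus GC it was 2 on slide 1 only (10%) and 7 with array weights (32.8%), against 4 (26.3%), and in GC minus CC 1 on slide 1 only (0.82%), against 2 (9.88%). In IVM CC minus CC it was 7 after normexp correction (78.6%), 6 with the deposited table (65.5%) and 8 with the slide as a random block (67.9%), against 3 (45.8%). Leaving out 1 array gave 8 to 9 members in the F-test, 4 to 5 in TH minus GC, 4 to 6 in TH minus CC, 2 to 3 in GC minus CC, 7 to 8 in oocytes minus CC, 6 to 9 in oocytes minus GC, 7 to 8 in oocytes minus TH and 1 to 4 in IVM CC minus CC, the 1 without CC replicate 2.

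NOTCH1 changed sign in oocytes minus CC after normexp correction (-0.94 against 0.02) and in TH minus GC with its brightest probe or with only probes above background on at least 4 arrays (0.62 in each against -0.39). With the replicate number as a block, which pairs TH with GC, the TH minus GC difference of DLL4 (0.64) became called, as did TH minus CC of HES1 (-0.76), where the numbers did not pair the arrays. The block changed no other call.

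Of all genes called, the share higher in oocytes than in CC, GC and TH was 49.8%, 44.7% and 50.3%, and 26.2%, 24.8% and 27.2% after normexp correction. With the deposited table it was 36.8% against CC and 39.4% against TH, and in GC minus CC 26.8% against 46.6%. In IVM CC it was 66.1%, and 43.2% after quantile normalization and 83.4% after normexp correction. With the percentile over probes above background on all arrays it was 55.9% in TH minus GC, 60.7% in TH minus CC and 58.4% in GC minus CC, against 45%, 45.2% and 46.6%. The causes of these changes were not tested. The filter on dim genes left NOTCH3 out of the fit of CC and IVM CC.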
